A study of Mus musculus with 12 samples.

Results

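Of 55487 genes in the count tables, 10 were examined here for their place in the stress response of the endoplasmic reticulum (ER). They were chosen by name as known targets of the transcription factors ATF6 and XBP1, and the rule used no measured value, although earlier results of these data were known when they were chosen. All 10 passed the filters on low counts, which left 14516 genes in total RNA, 13529 in ribosome-protected fragments (RPF) and 12560 in the ratio of RPF to RNA. Total RNA and RPF were sequenced from B16F10 cells, a mouse melanoma line, to ask what loss of Osgep does to transcripts and to their translation. OSGEP carries the enzyme activity of KEOPS, a complex that places the t6A modification beside the anticodon in tRNAs for codons beginning with A. The cells had been transduced with a lentiviral control hairpin (shCtr) or with hairpin number 2 against Osgep (shOSGEP) and selected with puromycin, with 3 replicates of each genotype. Both genotypes thus carry a hairpin vector, a single hairpin stands for the knockdown, and replicate 1, 2 and 3 of shCtr and shOSGEP are read as pairs below. For RPF, cells of both genotypes received cycloheximide at 10 µg/mL for 5 min, translating ribosomes were captured with a puromycin analogue, and fragments of 25 to 35 nt were kept. The labels repeat these settings for the total RNA libraries, so those cells may have received cycloheximide too.

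Proteins that enter the secretory pathway fold in the ER, and a surplus of unfolded chains there sets off the unfolded protein response. This response has several sensors. IRE1 cuts a short intron out of Xbp1 mRNA so that it encodes an active factor, ATF6 travels to the Golgi and is cleaved to a factor that enters the nucleus, and both then switch on chaperones, folding enzymes and the machinery that exports misfolded proteins for degradation. PERK instead phosphorylates the translation factor eIF2α, which slows initiation and favours translation of ATF4. Other kinases that sense amino acid shortage, heme shortage or double-stranded RNA act on the same site of eIF2α, so that ATF4 targets can be switched on without the ER arm. The 10 genes were therefore chosen to stand for the ATF6 and XBP1 arm, and a list of ATF4 targets was read beside them. The promoter of Herpud1 also held a match to a motif that ATF4 binds with a C/EBP partner. Whether ATF4 acts on Herpud1 in these cells was not tested. Such a match was present in 3.97% of all promoters searched, and whether Herpud1 stands for the ATF6 and XBP1 arm alone was not tested either.

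The sequences that define this arm are shown first, since the motifs of this arm and of the ATF4 branch can be read from them. Promoter windows from 250 bases before to 50 bases after each RefSeq transcription start (GRCm38.p6) were found for 9 of the 10 genes; Hyou1 was not matched. Both strands were searched for 4 motifs. The ER stress response element (ERSE) was searched as CCAAT, 9 bases of any kind and CCACG, and ERSE-II as ATTGG, 1 base and CCACG. The core of the unfolded protein response element (UPRE) was searched as TGACGTG, and the C/EBP-ATF composite element, which ATF4 binds with a C/EBP partner, as TGATG, 1 base and AA. ERSE and ERSE-II share their CCACG part, and CCACG alone was present in 32.8% of all windows and in 8 of the 9 genes. The windows that hold a match are printed on the strand of the gene, 5′ to 3′, with the letters of each match in capitals and the bases between in lower case.
Herpud1 (chr8:94386307-94386397, plus strand): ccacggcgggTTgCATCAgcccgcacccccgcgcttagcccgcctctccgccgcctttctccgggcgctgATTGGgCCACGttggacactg
Hspa5 (chr2:34771923-34772053, plus strand): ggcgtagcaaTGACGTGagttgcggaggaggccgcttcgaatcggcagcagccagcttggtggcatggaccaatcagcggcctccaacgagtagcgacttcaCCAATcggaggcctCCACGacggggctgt
Hsp90b1 (chr10:86705523-86705666, minus strand): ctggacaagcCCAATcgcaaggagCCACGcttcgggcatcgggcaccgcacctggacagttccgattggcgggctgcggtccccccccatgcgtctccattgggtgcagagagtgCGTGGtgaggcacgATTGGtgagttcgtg
Creld2 (chr15:88819510-88819548, plus strand): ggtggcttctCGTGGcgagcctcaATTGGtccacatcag
In the Herpud1 window, the first capitals are the C/EBP-ATF composite on the reverse strand, from -112 to -105, and the second are ERSE-II, from -52 to -42. Hspa5 holds the UPRE core from -157 to -151 and then an ERSE from -65 to -47. Hsp90b1 holds an ERSE from -212 to -194 and another, on the reverse strand, from -107 to -89. Creld2 holds an ERSE on the reverse strand from -126 to -108.

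Among 32851 promoter windows of the same length, ERSE was present in 39 (0.119%) and in 3 of the 9 genes, namely Hspa5, Hsp90b1 and Creld2. ERSE-II was present in 12 windows (0.0365%), 1 of them Herpud1. The UPRE core was present in 661 (2.01%) and the C/EBP-ATF composite in 1304 (3.97%). Of the 9 genes, Herpud1 was the 1 with a composite element, and among 29 matched genes of the ATF4 list 9 held one, whereas none of the 29 held ERSE or ERSE-II. Among 26 matched genes of a list of further ER genes, 6 held ERSE, 1 ERSE-II and 1 the composite. Dnajb9, Sdf2l1, Pdia4, Edem1 and Xbp1 had no match to the 4 motifs in these windows, which says only that these letters are not there.

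**Figure D1:**
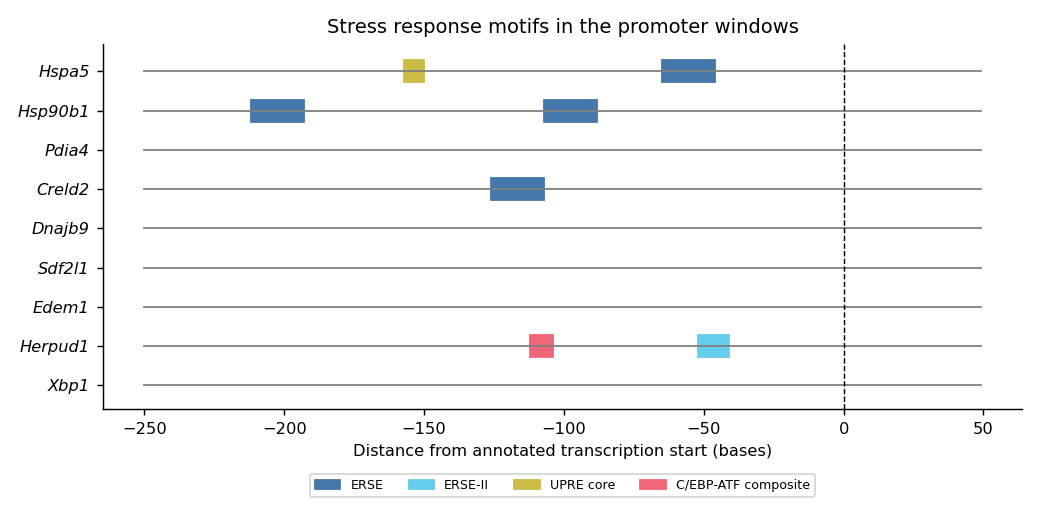
Positions of the 4 motifs in the promoter windows of 9 genes, with distance from the RefSeq transcription start in bases on the x axis and 1 line per gene. Each box is 1 match on either strand, and Herpud1 is the line with both an ERSE-II and a C/EBP-ATF composite.

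The Xbp1 intron that IRE1 removes lies within the coding exon 4 and is 26 bases long (5524278 to 5524303 on chromosome 11). It is shown because the counts cannot see it. Capitals mark the intron as RefSeq places it, and a placement up to 6 bases further on gives the same spliced product.
Xbp1 (chr11:5524266-5524315, plus strand): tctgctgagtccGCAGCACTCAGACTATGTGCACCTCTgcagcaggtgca
A count per gene adds spliced and unspliced Xbp1 together, so the Xbp1 values below give the amount of its RNA and say nothing of how much was spliced.

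Depth and identity of the libraries bear on all values. With M for mega, total RNA libraries held 46.7 to 81.1 M counts and RPF libraries 12.9 to 40.3 M, of which 4.42 to 17 M fell on protein-coding genes. The RPF library of shOSGEP replicate 1 had the fewest of these, with 67.7% of its counts on ribosomal RNA against 27.7% to 44.8% in the other RPF libraries. Counts per M (CPM) are given per library size scaled by TMM. The scaling factor was 0.428 for that RPF library and 0.807 to 1.35 for the other RPF libraries. Osgep in total RNA was at 13.9, 15.7 and 15.3 CPM in shCtr replicates 1, 2 and 3. In shOSGEP it was at 0.589, 6.92 and 6.77 CPM, so the groups did not overlap (log2 change -1.65, SE 0.77). In RPF it was at 7.71, 7.26 and 4.7 CPM in shCtr and at 4.86, 3.8 and 2.35 CPM in shOSGEP, lower in every pair, and the very low RNA value of shOSGEP replicate 1 was not matched by its RPF value. All 7 melanocyte markers (Mitf, Sox10, Dct, Tyrp1, Tyr, Pmel and Mlana) were present, with summed levels in total RNA of 9660 to 16800 CPM in shCtr and 2650 to 12800 CPM in shOSGEP. All 7 were lower in pair 1, with a median log2 change of -2.16, against -0.36 in pair 2 and 0.06 in pair 3. Markers of blood, endothelial, epithelial and fibroblast cells in total RNA summed to 0.738 to 1.26 CPM in shCtr and 0.736 to 15.7 CPM in shOSGEP, with 7 and 6 of 11 at 0 in every library of the group. The highest sum was that of shOSGEP replicate 1, where Col1a1 alone was at 15.3 CPM, against 1.12 CPM in shCtr replicate 1. In RPF the sums were 1.28 to 2.36 CPM in shCtr and 2.07 to 10.9 CPM in shOSGEP, with Col1a1 at 5.85 and Epcam at 4.29 CPM in shOSGEP replicate 1. Pair 1 also differed most over all genes, with 3153 of 14516 genes apart by more than 1 on the log2 scale against 646 and 643 in pairs 2 and 3. The part of these differences in the results below was not tested.

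Herpud1 was higher in shOSGEP than in shCtr in all 3 pairs, in RNA and in RPF, while most of the other genes lay close to or below their shCtr level. The other 9 had fitted log2 changes in total RNA from -0.53 for Sdf2l1 to 0.03 for Xbp1, against 0.75 for Herpud1. No gene of the whole table passed an adjusted p of 0.05 in edgeR's quasi-likelihood test (0 of 14516, 0%), and with DESeq2 8 genes passed in total RNA, none of them among the 10. All differences below are therefore values with their errors. They describe bulk RNA, in which fewer cells that express a gene and less RNA per cell cannot be told apart, and the p-values measure the spread between these 6 libraries.

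HERPUD1 is a membrane protein of the ER that gathers the HRD1 ubiquitin ligase complex for degradation of misfolded proteins. Its gene (ENSMUSG00000031770) lies at chr8:94386438-94395377 on the plus strand and overlaps the antisense gene Gm15890 without shared exonic bases. In total RNA Herpud1 was at 34.1, 41.7 and 39.3 CPM in shCtr replicates 1, 2 and 3. It was at 70.5, 68.3 and 54.6 CPM in shOSGEP. The lowest shOSGEP library was thus above the highest shCtr library. The means were 38.4 ± 3.87 CPM and 64.5 ± 8.64 CPM (SD, n = 3 each), a ratio of 1.68. The fitted log2 change was 0.75 (SE 0.16, 95% interval 0.36 to 1.14), with an unadjusted edgeR p of 0.00276 and an adjusted p of 0.976. By pair the log2 change was 1.05, 0.71 and 0.47, and without the libraries of replicate 1 the fit gave 0.59 (SE 0.15, unadjusted edgeR p 0.00795).

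Ribosome footprints on Herpud1 were fewer in number, with 123 to 368 counts per library. In RPF Herpud1 was at 6.92, 8.17 and 5.68 CPM in shCtr and at 19.4, 11.4 and 7.99 CPM in shOSGEP. Each shOSGEP library was above the shCtr library of its number, yet the groups overlapped, because shOSGEP replicate 3 lay below shCtr replicate 2. The means were 6.92 ± 1.25 CPM and 12.9 ± 5.84 CPM (SD, n = 3 each), a ratio of 1.86. The fitted change was 0.90 (SE 0.38, 95% interval 0.00 to 1.79, unadjusted edgeR p 0.0498, adjusted p 1). Pair 1 gave 1.48, and pairs 2 and 3 gave 0.47 and 0.49. Without the libraries of replicate 1 the fitted change in RPF was 0.48 (SE 0.35, unadjusted edgeR p 0.234). The ratio of RPF to RNA, the translational efficiency (TE), changed by 0.14 on the log2 scale (SE 0.41, 95% interval -0.76 to 1.05), and by pair by 0.43, -0.24 and 0.02. The TE of Herpud1 thus gave no difference beyond its error, within an interval that holds changes of either sign.

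**Figure D2:**
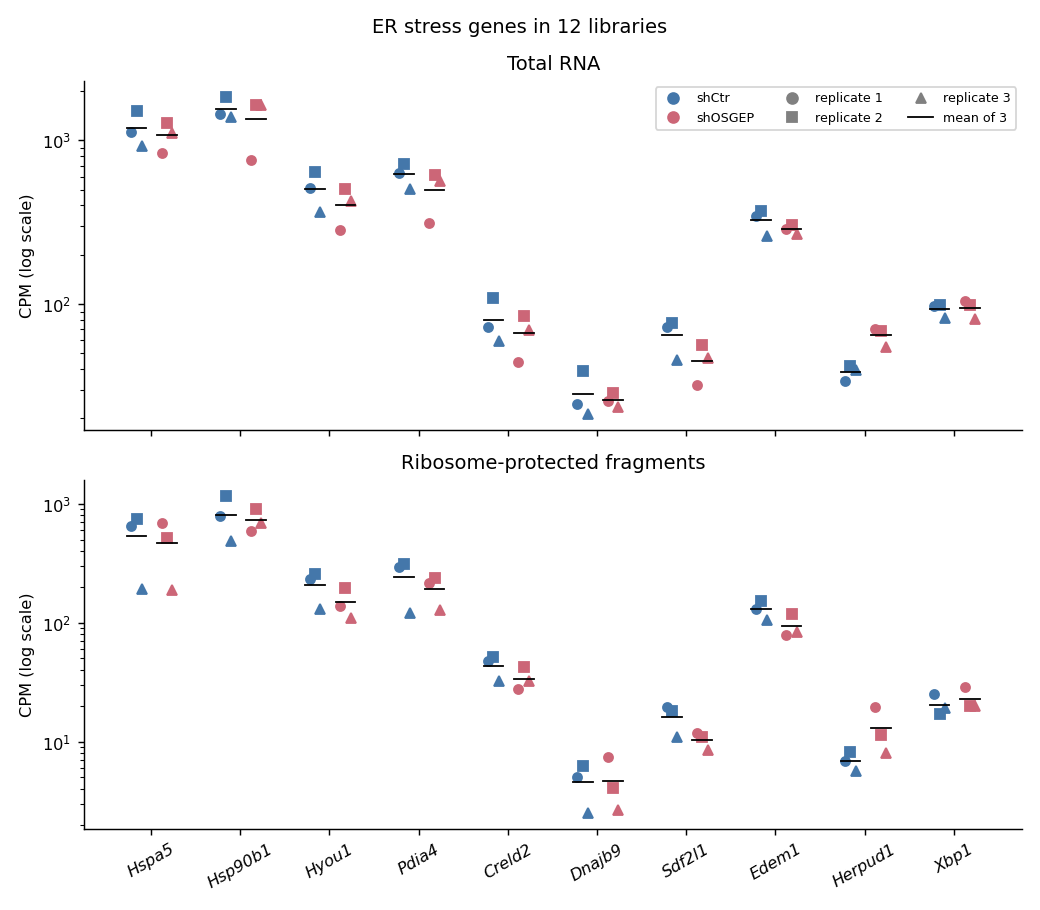
CPM of the 10 genes in the 6 total RNA libraries (upper panel) and the 6 RPF libraries (lower panel) on log axes, with colours for genotype, symbols for replicate and a bar at the mean of 3. In the upper panel Herpud1 is the gene whose shOSGEP libraries, at 54.6 to 70.5 CPM, all sit above its shCtr libraries, at 34.1 to 41.7 CPM.

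The chaperones of the ER lumen overlapped between genotypes in both assays. HSPA5, also called BiP, is the HSP70 chaperone that binds unfolded chains and holds the stress sensors inactive, and its gene (ENSMUSG00000026864) lies at chr2:34771970-34777547 on the plus strand. In total RNA Hspa5 was at 1130, 1500 and 919 CPM in shCtr and at 839, 1270 and 1110 CPM in shOSGEP. The ranges overlapped almost fully. The fitted log2 change was -0.14 (SE 0.25, 95% interval -0.73 to 0.45), and the pairs gave -0.43, -0.24 and 0.28. In RPF Hspa5 was at 654, 749 and 193 CPM in shCtr and at 688, 515 and 187 CPM in shOSGEP. Both replicate 3 libraries were far below the rest. The fitted change of -0.20 had a 95% interval from -1.76 to 1.36, and the pairs gave 0.07, -0.54 and -0.05. With the replicate number as a block the change was -0.17 (SE 0.25).

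HSP90B1, or GRP94, is the HSP90 chaperone of the ER, whose clients include integrins and Toll-like receptors. Its gene (ENSMUSG00000020048) lies at chr10:86690209-86705509 on the minus strand and shares 415 exonic bases (10.3% of its exons) with the pseudogene 1810014B01Rik on the opposite strand. Reads there cannot be assigned without strand, and the use of strand in counting is not given in the sources used here. In total RNA Hsp90b1 was at 1440, 1840 and 1390 CPM in shCtr and at 755, 1640 and 1650 CPM in shOSGEP. The shOSGEP replicate 1 library stood below the other 5. The fitted change was -0.21 (SE 0.32, 95% interval -0.97 to 0.56), made of -0.93, -0.17 and 0.25 by pair. In RPF the values were 789, 1160 and 483 CPM against 585, 907 and 691 CPM (log2 change -0.16, SE 0.44), again with overlapping groups.

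HYOU1, or GRP170, is a large HSP70-like protein that exchanges the nucleotide of BiP, and its gene (ENSMUSG00000032115) lies at chr9:44379490-44392369 on the plus strand. In total RNA Hyou1 was at 508, 643 and 363 CPM in shCtr and at 284, 501 and 424 CPM in shOSGEP (log2 change -0.32, SE 0.29). It was lower in pairs 1 and 2 and higher in pair 3. In RPF it was at 232, 257 and 130 CPM against 139, 195 and 109 CPM, lower in every pair (-0.73, -0.40 and -0.26). The fitted change was -0.48 (SE 0.39, 95% interval -1.40 to 0.43), and -0.46 (SE 0.21) with the replicate number as a block.

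The folding enzymes also had fitted changes below 0 with overlapping groups. PDIA4, or ERp72, is a protein disulfide isomerase, and its gene (ENSMUSG00000025823) lies at chr6:47796141-47813430 on the minus strand. In total RNA Pdia4 was at 629, 721 and 507 CPM in shCtr and at 314, 617 and 565 CPM in shOSGEP. The log2 change was -1.0 in pair 1 but -0.23 and 0.16 in pairs 2 and 3, and the fit gave -0.31 (SE 0.28, 95% interval -0.98 to 0.36). In RPF Pdia4 was at 295, 312 and 120 CPM against 215, 236 and 128 CPM (log2 change -0.33, SE 0.46). CRELD2 is an ER resident protein with isomerase activity that can also be secreted under stress, and its gene (ENSMUSG00000023272) lies at chr15:88819646-88826683 on the plus strand. In total RNA Creld2 was at 72.7, 109 and 59.5 CPM in shCtr and at 44.1, 85 and 69.7 CPM in shOSGEP (log2 change -0.28, SE 0.31). Its RPF values were 47.4, 51.3 and 32.1 CPM against 27.5, 42 and 32.1 CPM (log2 change -0.36, SE 0.30). For both genes pair 1 held the largest difference and pair 3 the smallest in RPF.

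DNAJB9, or ERdj4, is a J-domain protein that directs BiP to misfolded clients and to IRE1, and its gene (ENSMUSG00000014905) lies at chr12:44205559-44210326 on the minus strand. In total RNA Dnajb9 was at 24.5, 38.9 and 21.3 CPM in shCtr and at 25.4, 28.5 and 23.4 CPM in shOSGEP (log2 change -0.13, SE 0.25). The shOSGEP libraries lay inside the shCtr range. In RPF it had the fewest counts of the 10, from 89 to 131 per library, with 5.01, 6.29 and 2.5 CPM against 7.42, 4.05 and 2.64 CPM and a fitted change of 0.03 (SE 0.52). A change of 1 on the log2 scale in either direction lay within its 95% interval of -1.20 to 1.25. The fit with the replicate number as a block gave 0.00 (SE 0.33).

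SDF2L1 is a partner of the ERdj3 J-domain protein and keeps BiP clients from aggregating, and its gene (ENSMUSG00000022769) lies at chr16:17130138-17132383 on the minus strand. Of the 10 genes Sdf2l1 had the lowest fitted change in RNA and in RPF. In total RNA it was at 72.3, 76.1 and 45.6 CPM in shCtr and at 31.9, 56.3 and 46.5 CPM in shOSGEP, which is -1.18, -0.43 and 0.03 by pair. The fit gave -0.53 (SE 0.28, 95% interval -1.19 to 0.14, unadjusted edgeR p 0.103), and without the libraries of replicate 1 it gave -0.25 (SE 0.26). In RPF Sdf2l1 was at 19.5, 18.1 and 11 CPM in shCtr and at 11.8, 10.9 and 8.56 CPM in shOSGEP. All 3 pairs were lower (-0.72, -0.73 and -0.35), although shOSGEP replicate 1 stayed above shCtr replicate 3. The fit gave -0.64 (SE 0.30, 95% interval -1.35 to 0.08, unadjusted edgeR p 0.0738). With the replicate number as a block the change was -0.60 (SE 0.19) and the unadjusted edgeR p 0.0216, and the adjusted p was 0.816.

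EDEM1 trims mannose from misfolded glycoproteins so that they are marked for degradation, and its gene (ENSMUSG00000030104) lies at chr6:108828641-108859356 on the plus strand. In total RNA Edem1 was at 346, 369 and 261 CPM in shCtr and at 288, 303 and 268 CPM in shOSGEP (log2 change -0.18, SE 0.17). In RPF it was at 129, 151 and 105 CPM against 79, 118 and 84.2 CPM, lower in every pair (-0.71, -0.35 and -0.32), with a fitted change of -0.45 (SE 0.30, 95% interval -1.17 to 0.26). Edem1 and Herpud1, both of the degradation machinery, thus differed in sign. The 95% intervals of their changes in total RNA, -0.59 to 0.22 and 0.36 to 1.14, did not overlap, and the difference between the genes was not tested.

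XBP1 is the factor that IRE1 splicing activates, and its own gene is a target of ATF6. The gene (ENSMUSG00000020484) lies at chr11:5520659-5525893 on the plus strand. In total RNA Xbp1 was at 96.6, 99.3 and 82 CPM in shCtr and at 104, 99.1 and 80.5 CPM in shOSGEP. Each pair was nearly level, at 0.11, 0.00 and -0.03. The fitted change of 0.03 had an SE of 0.16 and a 95% interval from -0.35 to 0.40. In RPF Xbp1 was at 24.9, 17.1 and 19 CPM against 28.5, 19.9 and 20.1 CPM, slightly higher in every pair (0.19, 0.22 and 0.08), with a fitted change of 0.17 (SE 0.28).

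**Figure D3:**
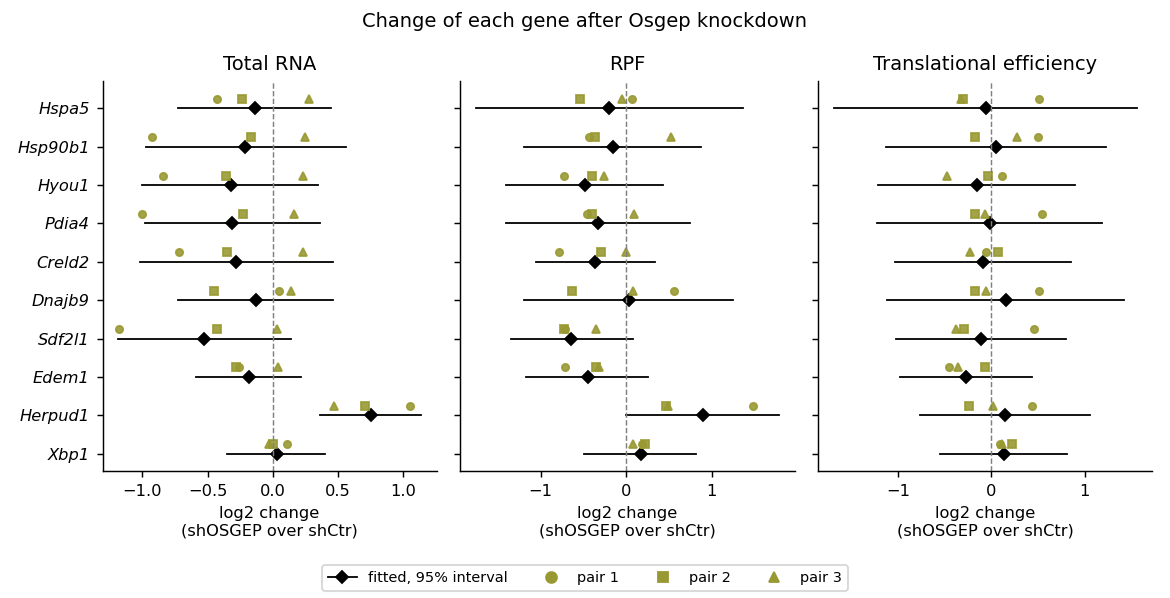
Fitted log2 change of shOSGEP over shCtr with its 95% interval (black diamonds and lines) and the change in each replicate pair (olive symbols) for the 10 genes in total RNA, RPF and translational efficiency. In total RNA the interval of Herpud1, 0.36 to 1.14, is the one of the 10 that lies away from 0, and the intervals are wider in RPF for 9 of the 10, Creld2 excepted.

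Counted together, 2 of the 10 genes had a fitted change above 0 in total RNA (Herpud1 and Xbp1), beside 7713 of all 14516 genes. The median of the 10 was -0.197, beside a median of 0.021 over all genes. Herpud1 was the 1 gene of 10 with an unadjusted edgeR p under 0.05 in total RNA, beside 1.49% of all genes in the higher and 0.248% in the lower direction. It was also the 1 of 10 whose groups did not overlap, beside 4% of all genes higher and 3.09% lower without overlap. Likewise it was the 1 of 10 higher in 3 of 3 pairs, beside 17.7% of all genes, and none of the 10 was lower in 3 of 3 pairs, beside 16.2%. Each of these counts rests on Herpud1 and holds none of the chaperones.

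In RPF 3 of the 10 lay above 0 (Herpud1, Xbp1 and Dnajb9), beside 7421 of all 13529 genes. The median of the 10 was -0.265, beside 0.045 over all genes. No gene of the RPF table passed the adjusted threshold with edgeR (0%), and 1 did with DESeq2, which was none of the 10. Herpud1 was again the 1 gene with an unadjusted edgeR p under 0.05, beside 0.754% of all genes higher and 0.266% lower. The groups overlapped for all 10 in RPF, beside 2.43% of all genes higher and 2.64% lower without overlap. Herpud1 and Xbp1 were higher in 3 of 3 pairs (2 of 10, beside 15.6%), and Sdf2l1, Hyou1, Creld2 and Edem1 were lower in 3 of 3 (4 of 10, beside 15.2%), Creld2 with 0.00 after rounding in pair 3. With the replicate number as a block, Herpud1 had an unadjusted p under 0.05 in total RNA, beside 2.41% of genes higher and 0.572% lower under the block. In RPF under the block Herpud1 was 1 such gene in the higher direction, beside 2.56%, and Sdf2l1 1 in the lower, beside 1.5%.

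Many of the 10 genes were high or low in the same libraries. In total RNA shCtr replicate 2 was the highest of the 6 libraries for 8 of the 10 genes, and shOSGEP replicate 1 was the lowest for 6. In RPF shCtr replicate 2 was the highest for 6. The same counts were not made over all genes, so a difference of whole libraries cannot be told apart from a trait of these genes. The median of the 9 genes without Herpud1 in total RNA was -0.72 in pair 1, -0.28 in pair 2 and 0.16 in pair 3. In RPF it was -0.46, -0.40 and 0.00. In pair 3 of total RNA, 9 of the 10 genes were higher in shOSGEP, against 1 of 10 in pair 2. Over all 14516 genes, 7307 were higher in pair 3 and 7541 in pair 2. Pair 1, in which the 9 genes were lowest, is also the pair in which the melanocyte markers were lowest and Osgep RNA was at 0.589 CPM; their part in the values was not tested. Without the libraries of replicate 1 the median of the 10 genes was -0.098 in total RNA and -0.305 in RPF.

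As a share of protein-coding counts in total RNA, the 10 genes together made up 0.476%, 0.562% and 0.408% in shCtr and 0.32%, 0.485% and 0.477% in shOSGEP. In RPF the share was 0.596%, 0.723% and 0.324% in shCtr and 0.495%, 0.573% and 0.39% in shOSGEP. The groups overlapped in both assays, and these shares are set mostly by Hspa5, Hsp90b1, Pdia4 and Hyou1.

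Levels were compared between genes per kilobase of exon (total RNA) or of coding sequence (RPF). In shCtr total RNA Hsp90b1 was first with 386 ± 62.3 CPM per kb, before Hspa5 with 280 ± 69.7 and Pdia4 with 258 ± 44.7 (SD, n = 3), and neighbours among these 3 overlapped. Hyou1, Creld2, Sdf2l1 and Edem1 followed within 69.8 to 50.4 CPM per kb, each overlapping the next. Xbp1 at 28.5 ± 2.87 stood apart from both sides, and Herpud1 at 16.5 ± 1.66 and Dnajb9 at 11.1 ± 3.67 came last with overlapping libraries. In shOSGEP the order of the first 5 was the same, and Herpud1, at 27.6 ± 3.7 CPM per kb, now overlapped Xbp1, at 29.1 ± 3.81, and no longer overlapped Dnajb9, at 10.1 ± 1. In shCtr RPF Herpud1, with 5.9 ± 1.06 CPM per kb of coding sequence, and Dnajb9, with 6.91 ± 2.9, came last with overlapping libraries, and they overlapped in shOSGEP too, at 11 ± 4.98 and 7.06 ± 3.69.

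Translational efficiency of the 10 genes showed no difference beyond its error. TE is given as log2 of RPF over RNA CPM, and lower values mean fewer footprints per RNA. It is not scaled by length, so it is compared between libraries of a gene and not between genes. Herpud1 was at -2.29, -2.34 and -2.78 in shCtr replicates 1, 2 and 3 and at -1.86, -2.58 and -2.76 in shOSGEP. The shOSGEP replicate 1 library was the highest of the 6, and the others overlapped between genotypes. Hspa5 was at -0.79, -1.0 and -2.25 in shCtr and at -0.29, -1.30 and -2.58 in shOSGEP, with both replicate 3 libraries lowest. Xbp1 was at -1.95, -2.53 and -2.10 in shCtr and at -1.86, -2.31 and -2.0 in shOSGEP, higher by 0.09, 0.22 and 0.11 in the 3 pairs. Edem1 was at -1.42, -1.29 and -1.31 against -1.87, -1.35 and -1.67, lower by pair (-0.45, -0.07 and -0.36).

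In the interaction test of assay and genotype, the fitted changes in TE ran from -0.27 for Edem1 (SE 0.32) to 0.15 for Dnajb9 (SE 0.58). Of the 10 genes 4 lay above 0, beside 6341 of 12560 genes, with a median of -0.041 beside 0.003 over all genes. No gene of the table passed the adjusted threshold with edgeR (0%) or with DESeq2. None of the 10 had an unadjusted edgeR p under 0.05, beside 0.0637% of all genes in the higher and 0.0637% in the lower direction. None had groups without overlap, beside 2.03% higher and 2.31% lower. Xbp1 was higher in 3 of 3 pairs (1 of 10, beside 11.6% of all genes) and Edem1 lower in 3 of 3 (1 of 10, beside 11.2%). By pair the median TE change of the 10 was 0.44, -0.18 and -0.15. The 95% intervals were widest for Hspa5, from -1.69 to 1.56, so a change of 1 on the log2 scale in TE was not detectable for it at this depth and spread.

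Further genes of the ER folding and degradation machinery also lay mostly below 0. Of 33 listed, 32 could be fitted (Derl3 fell under the filter). Of these, 11 had a change above 0 in total RNA and 10 in RPF, with medians of -0.075 and -0.144. Over all genes, 7713 of 14516 and 7421 of 13529 lay above 0. In total RNA the pair medians were -0.20, -0.13 and 0.12, and those of the footprints were -0.04, -0.25 and -0.05. Wfs1, an ER membrane protein that is also under control of the stress response, was at 17.8, 16.7 and 17.9 CPM in shCtr and 77.5, 24.9 and 29 CPM in shOSGEP total RNA, without overlap (log2 change 1.33, SE 0.43, unadjusted edgeR p 0.0188, adjusted p 0.976). It was the 1 of the 32 with an unadjusted edgeR p under 0.05, beside 1.49% of all genes higher and 0.248% lower. It was also the 1 of the 32 higher without overlap, beside 4% of all genes, and without replicate 1 its change was 0.63 (SE 0.15). Lman1, a cargo receptor for export from the ER, had a change of 0.34 (SE 0.19), and Sec61a1, of the channel through which chains enter the ER, had -0.47 (SE 0.28) in total RNA. In RPF, Wfs1 had 1.35 (SE 0.66), Manf, a secreted ER stress factor, -0.57 (SE 0.35) and Serp1, a stabiliser of the entry channel, -0.54 (SE 0.37). Like the chaperones, Sec61a1, Manf and Serp1 had fitted changes below 0 in both assays.

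The sensors themselves were measured next. Of the 7 genes that encode them or process them, 6 had a change above 0 in total RNA and 5 in RPF, with medians of 0.273 and 0.09. Beside these stand 7713 of 14516 genes above 0 in total RNA and 7421 of 13529 in RPF. With replicate 1 left out, 6 and 3 of 7 lay above 0, with medians of 0.121 and -0.028. None of the 7 had an unadjusted edgeR p under 0.05 in either assay. Over all genes the shares were 1.49% higher and 0.248% lower in total RNA, and 0.754% and 0.266% in RPF. Ern1, which encodes IRE1, was at 52.7, 49.5 and 52.6 CPM in shCtr and 93.4, 52 and 69.6 CPM in shOSGEP total RNA. Its log2 change was 0.47 (SE 0.22), and 0.24 (SE 0.17) without replicate 1. In RPF it was at 25.1, 26.5 and 27.8 CPM against 35.7, 29.7 and 44.7 CPM, without overlap, beside 2.43% of all genes higher. Its change there was 0.47 (SE 0.25), and 0.44 (SE 0.29) without replicate 1. Atf6 was at 92.3, 80.5 and 64.7 CPM in shCtr and 191, 68.2 and 90.8 CPM in shOSGEP total RNA, so its change of 0.56 (SE 0.38) came largely from replicate 1 and was 0.12 (SE 0.19) without it. Eif2ak3, which encodes PERK, had a change in total RNA of 0.36 (SE 0.22) and in footprints of 0.18 (SE 0.24). Without replicate 1 these changes were 0.13 (SE 0.17) and 0.13 (SE 0.28). These sensors are switched on by protein changes that RNA levels do not show.

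Most genes of the ATF4 branch had changes above 0. Of 33 listed genes 30 could be fitted (Vldlr, Stc2 and Fgf21 fell under the filter). Of these, 29 had a change above 0 in total RNA and 26 in RPF, with medians of 0.63 and 0.464. Over all genes, 7713 of 14516 and 7421 of 13529 lay above 0. An unadjusted edgeR p under 0.05 was found for 15 of 30 in the higher direction in total RNA, beside 1.49% of all genes, and for 3 in RPF, beside 0.754%, and for none in the lower direction. With the replicate block these counts were 19, beside 2.41%, and 11, beside 2.56%, and no gene of the list passed the adjusted threshold under either fit. This list, like the others, was chosen with earlier results of these data known, so its counts are given as descriptions. Without the libraries of replicate 1, 30 of 30 were above 0 in total RNA (median 0.484) and 25 of 30 in RPF (median 0.292). In TE 11 of 30 lay above 0, with a median of -0.098.

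Atf4 itself was at 242, 264 and 274 CPM in shCtr and at 441, 346 and 402 CPM in shOSGEP total RNA. The groups did not overlap, beside 4% of all genes higher without overlap (log2 change 0.61, SE 0.15, unadjusted edgeR p 0.00476, adjusted p 0.976). In RPF its change was 0.44 (SE 0.33). The TE of Atf4 changed by -0.18 (SE 0.36, 95% interval -0.96 to 0.60), and by pair by -0.21, -0.04 and -0.21. Ddit3, which encodes the stress factor CHOP and is a target of ATF4, was at 14.1, 7.76 and 9.32 CPM against 21.3, 11.3 and 15.8 CPM in total RNA (0.63, SE 0.32) and changed by 1.03 (SE 0.48) in RPF, higher in every pair of both assays. Trib3, a pseudokinase that ATF4 and CHOP switch on, was at 28.7, 16.6 and 10.9 CPM in shCtr and 144, 34 and 59.4 CPM in shOSGEP (2.08, SE 0.60, unadjusted edgeR p 0.0104), and had 2.18 (SE 0.66) in RPF. Mthfd2, of mitochondrial folate metabolism, had 0.52 (SE 0.17) in total RNA, and in RPF Sesn2, an inhibitor of mTORC1 signalling, had 0.68 (SE 0.28) and Nupr1, a small stress protein, 2.22 (SE 0.92).

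**Figure D4:**
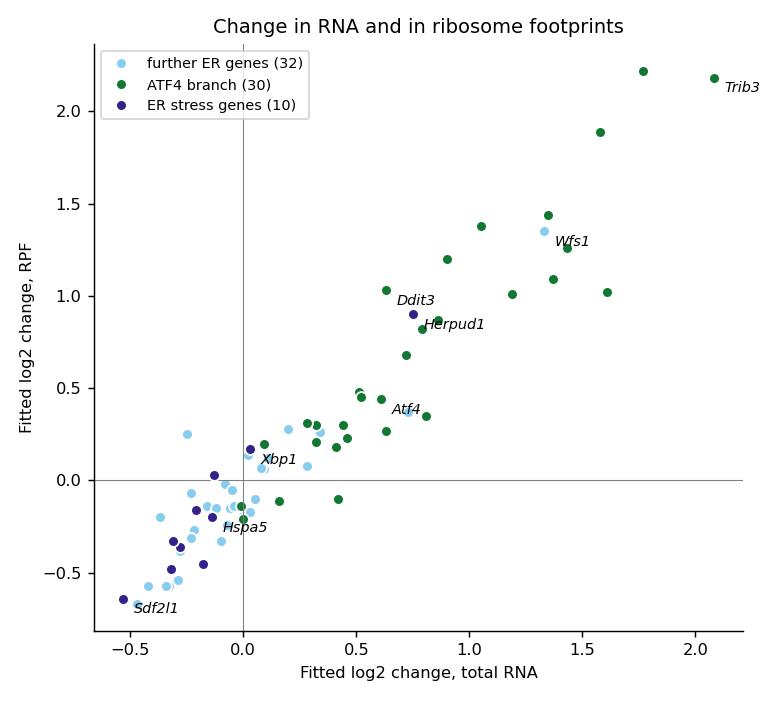
Fitted log2 change in total RNA (x axis) and in RPF (y axis) for the 10 ER stress genes, 32 further ER genes and 30 ATF4 branch genes, with 8 genes labelled. Herpud1 (0.75 and 0.90) lies among the ATF4 branch genes, and so does Wfs1 (1.33 and 1.35), one of the further ER genes. Hspa5 (-0.14 and -0.20) lies with the further ER genes. Sdf2l1 (-0.53 and -0.64) lies at their lower end, below their lowest total RNA change of -0.47.

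The lists were then set side by side within each pair. In total RNA the ATF4 branch had medians of 0.95, 0.32 and 0.61 in pairs 1, 2 and 3, and each of the 9 genes other than Herpud1 lay below that median in every pair. Herpud1, with 1.05, 0.71 and 0.47, lay above the ATF4 median in pairs 1 and 2 and below it in pair 3. In RPF the ATF4 medians were 0.67, 0.27 and 0.39, and 9, 9 and 8 of the 9 genes lay below them, while Herpud1 lay above in all 3 pairs with 1.48, 0.47 and 0.49. The difference between the ATF4 median and that of the 9 genes in total RNA was 1.67, 0.60 and 0.46 by pair. These medians share their libraries and are given as descriptions, with no test of the difference between lists.

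**Figure D5:**
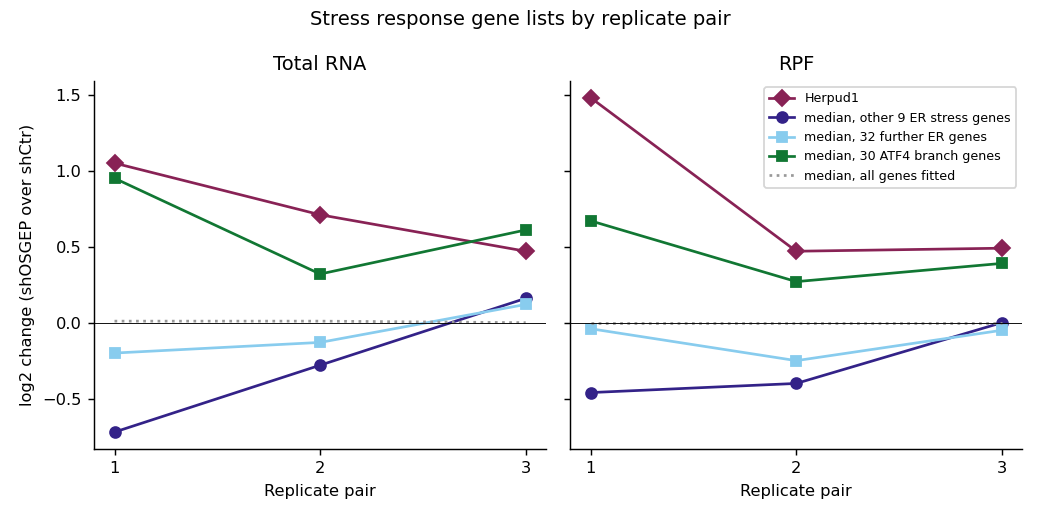
Log2 change of shOSGEP over shCtr in each replicate pair for Herpud1 and as the median of the other 9 genes, of 32 further ER genes, of 30 ATF4 branch genes and of all genes, in total RNA and RPF. Replicate pairs have no order, and lines only join values of one list. The other 9 genes lie at -0.72, -0.28 and 0.16 in total RNA, below the ATF4 branch at 0.95, 0.32 and 0.61.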

How the data were processed

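RNA and RPF from B16F10 cells (shCtr, shOSGEP, 3 replicates each) were analysed from the 2 deposited tables of raw counts per Ensembl gene. The authors trimmed reads with Trim Galore 0.6.6 and cutadapt and aligned them with STAR, per their processing notes, and the methods name GRCm38. The labels name both GRCm38 and GRCm39, so the build behind the counts is uncertain. The study names Salmon for an RNA sequencing experiment listed as a separate series, and perfect matches to coding transcripts for its footprint analysis, whereas the RPF table also holds ribosomal RNA. It is unclear whether either describes these tables, and the annotation behind them and the use of strand and of reads with several matches are not given in the sources used here. Reads of overlapping genes may therefore be shared. Symbols, lengths and coordinates came from GENCODE M21 (GRCm38), which holds 55227 of the gene IDs and lacks 260.

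Counts were fitted in R 4.3.3 with edgeR 4.0.16 (filterByExpr, TMM, quasi-likelihood test, Benjamini-Hochberg adjustment over all genes fitted, threshold 0.05), RPF and total RNA separately, and TE as the interaction of assay and genotype over 12 libraries. CPM used TMM library sizes, and log2 CPM a prior count of 2. Intervals come from the fits without a replicate block, are unadjusted and cover 95%. DESeq2 1.42.0, other scalings and filters, protein-coding genes only, the replicate block and left-out libraries were alternatives. The fits were tested on simulated data with the same spread for every gene and no differences shared by replicate number. How they perform at the spread of these libraries was not tested. Same-numbered libraries of the genotypes deviated together from their group means (r 0.52, 0.54 and 0.29 in total RNA, 0.59, 0.51 and 0.66 in RPF), and the methods describe independent transductions, so numbers were read as pairs. Where Ddit3 had 2 gene IDs, the longer was used. Promoters and the Xbp1 intron came from RefSeq (GRCm38.p6).

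The 10 genes and all lists were chosen with earlier results of these data known. Named were the 10 genes, Osgep, Atf4, Ddit3, Ern1, Atf6 and Eif2ak3, the 3 genes of each list with the smallest unadjusted p in total RNA and in RPF, and the 5 genes whose level most resembled that of Herpud1. No column was left without a sample.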

Additional observations from a re-analysis of the deposited data

How the results depend on the processing

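No gene passed the adjusted threshold in total RNA, RPF or TE, and leaving out any 1 library or replicate number kept these counts at 0 to 0, with 81 to 950, 69 to 560 and 16 to 83 genes whose unadjusted p was under 0.05. In total RNA DESeq2 called 8 genes and the replicate block 1, and in RPF 69 were called without a filter and 1 with DESeq2. None of the 10 genes was called under any alternative, and the block changed no call of theirs. The change of Dnajb9 in RPF was -0.0514 without a filter, and the change of Pdia4 in TE was 0.000225 among protein-coding genes only and 0.0925 with the replicate block; the cause was not tested. Over all alternatives, 415 of 460 values for the 10 genes kept their sign and 45 did not, touching 18 of 30 results.

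With libraries left out, 1 to 5 of the 10 genes lay above 0 in total RNA, 1 to 5 in RPF and 1 to 8 in TE. Their median ran from -0.405 to -0.029 in total RNA, from -0.558 to -0.038 in RPF and from -0.254 to 0.191 in TE. The ATF4 median ran from 0.351 to 0.777, from 0.123 to 0.636 and from -0.203 to -0.032. Herpud1 ran from 0.591 to 0.853 in total RNA, from 0.477 to 1.14 in RPF and from -0.188 to 0.331 in TE. In total RNA the range crossed 0 for Hspa5 (-0.338 to 0.0695), Hsp90b1 (-0.472 to 0.0684), Xbp1 (-0.0671 to 0.114), Dnajb9 (-0.313 to 0.173) and Creld2 (-0.506 to 0.00703). In RPF it did for Hspa5 (-0.61 to 0.174), Hsp90b1 (-0.419 to 0.184), Xbp1 (-0.036 to 0.328) and Dnajb9 (-0.463 to 0.404). In TE it did for Hspa5 (-0.615 to 0.348), Hsp90b1 (-0.14 to 0.266), Xbp1 (-0.0347 to 0.258), Dnajb9 (-0.32 to 0.383), Sdf2l1 (-0.4 to 0.0471), Pdia4 (-0.351 to 0.311), Hyou1 (-0.321 to 0.0627) and Creld2 (-0.235 to 0.0275). Fits with 1 genotype reduced to 2 libraries assume the same spread as the rest. The few footprints of Dnajb9 and Herpud1, and the spread between libraries for all 10 genes, limit what RPF and TE can show.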

Other observations

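Transcripts that IRE1 is known to cut directly were listed apart, since their loss is another readout of that sensor. Of 6 listed, 5 could be fitted (Scara3 fell under the filter). Of these, 4 had a log2 change above 0 in total RNA and 4 in RPF, with medians of 0.526 and 0.482. Over all genes, 7713 of 14516 and 7421 of 13529 lay above 0. Hgsnat, a lysosomal enzyme, was the exception: it was at 786, 576 and 515 CPM in shCtr and at 383, 506 and 502 CPM in shOSGEP total RNA. The groups of Hgsnat did not overlap, beside 3.09% of all genes lower without overlap, and its change was -0.43 (SE 0.21). In RPF its change was -0.60 (SE 0.33), and without the libraries of replicate 1 it was -0.12 (SE 0.13) in total RNA. Sparc, a secreted matrix protein, had 0.53 (SE 0.36) and 0.58 (SE 0.55) in the 2 assays, and Pdgfrb, a growth factor receptor, 0.85 (SE 0.56) and 0.95 (SE 0.62). With replicate 1 left out, Sparc had 0.16 (SE 0.24) and 0.02 (SE 0.33), and Pdgfrb 0.12 (SE 0.39) and 0.31 (SE 0.58). Col6a1 had 1.04 (SE 1.28) in total RNA, from 1 to 126 counts per library. None of the 5 had an unadjusted edgeR p under 0.05 in either assay. Over all genes the shares were 1.49% higher and 0.248% lower in total RNA, and 0.754% and 0.266% in RPF.

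The genes whose log2 CPM most resembled that of Herpud1 over the 6 total RNA libraries, of 12559 other genes, were Cttnbp2, Eif2s2, Zfp507, Ttc37 and Fundc2, with Pearson r of 0.993, 0.982, 0.975, 0.975 and 0.971. Over the 6 RPF libraries the same genes had r of -0.138, 0.689, -0.518, 0.796 and 0.497. Over total RNA the median r with Herpud1 was -0.37 for the other 9 ER stress genes, 0.62 for the 30 ATF4 branch genes and 0.01 for all genes. In RPF the medians were 0.02, 0.62 and -0.05. The 6 libraries belong to 2 genotypes and share replicate numbers, and so many genes were ranked that these values are descriptions of the libraries, given without a test.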
